A study of Mus musculus with 4 samples.

Results

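The genes described here encode the proteins of the cytosolic ribosome. They were chosen by symbol, namely Rpl or Rps followed by a digit together with Rplp0, Rplp1, Rplp2 and Rpsa, without pseudogenes marked -ps and without the Rps6k kinases. This rule gave 86 genes of the 32285 features counted, 34 with symbols of the small subunit and 52 of the large subunit. The rule used names alone and no measured value. It also took in genes that are not standard ribosomal proteins: Rps27rt is a retrogene of Rps27, Rps19bp1 and Rpl7l1 encode nucleolar factors, and Rps27l, Rpl22l1, Rpl36al, Rpl39l, Rpl3l and Rpl10l encode like proteins or second copies.

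Spleens of 10-week-old mice were taken 4 h after an intravenous injection of 100 µl, and their cells were profiled by droplet single-cell RNA sequencing (10x Genomics). The 4 libraries came from wild-type C57BL/6 mice given PBS, wild-type mice given 9 µg recombinant mouse TNF, mice labelled TRIF-KO given PBS, and mice labelled TRIF-KO given TNF. Values in groups of 4 keep this order. Each group had 1 library, how many mice went into a library is not stated, and red blood cells had been lysed and dead cells removed. The series was made to ask how loss of TRIF, an adaptor of Toll-like receptors, alters the response of spleen cells to TNF.

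Ticam1, which encodes TRIF, had 154, 116, 252 and 343 UMIs, or 6.86, 3.83, 8.49 and 5.75 CPM, counts scaled to 1000000 UMIs. A UMI, or unique molecular identifier, counts 1 captured RNA molecule. The Ticam1 level therefore does not check the genotype labels, because the sources used here do not say which part of the gene was removed, and counts at a transcript's end can lie outside it. The 2452, 5033, 5403 and 6662 cells kept held 22439304, 30326484, 29690833 and 59659149 UMIs, with medians of 6883.5, 4678, 4408 and 7198.5 per cell. Pairs of libraries shared 3 to 15 cell barcodes. Since no group was replicated, no spread between animals was measured and no test was made, and genotype, treatment and library cannot be told apart. All 95% intervals cover counting error only.

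Each cytosolic ribosome is built from a small subunit, which decodes the mRNA, and a large subunit, which joins amino acids. Cells make the protein parts in equal numbers, and their mRNAs belong to the TOP class, whose transcripts open with a C and a run of pyrimidines and whose translation is governed by mTORC1 and LARP1. Resting lymphocytes give a large part of their mRNA to these genes, whereas mature neutrophils and late red cell precursors are known for a low content of ribosomes.

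The start regions of 6 members are shown because later results turn on them: Rps6 as a plain example of a TOP start, the Rps27 family because its retrogene stood apart from the other members, and Rps9 and Rpl12 because their part of the ribosomal protein RNA set neutrophils or T cells apart. Each line runs 5′ to 3′ from 20 bases before the annotated RefSeq start (GRCm38.p6) to 25 bases from it onward. Capitals mark the longest run of at least 5 bases that opens with C, goes on with C or T, and begins within 5 bases of the start. Rps27l also had a second RefSeq start, not shown (chr9:66946393-66946437, plus strand), where no such run was found. 
Rps6 (chr4:86857343-86857387, minus strand): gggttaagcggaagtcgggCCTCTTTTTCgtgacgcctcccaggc
Rps27 (chr3:90213624-90213668, minus strand): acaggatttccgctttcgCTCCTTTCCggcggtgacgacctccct
Rps27rt (chr9:114982715-114982759, minus strand): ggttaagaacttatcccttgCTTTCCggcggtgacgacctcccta
Rps27l (chr9:66946066-66946110, plus strand): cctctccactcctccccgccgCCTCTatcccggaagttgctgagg
Rps9 (chr7:3704021-3704065, plus strand): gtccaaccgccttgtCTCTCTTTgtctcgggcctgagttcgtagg
Rpl12 (chr2:32961692-32961736, plus strand): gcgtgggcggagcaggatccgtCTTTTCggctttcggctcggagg

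Of the 86 members, 66 had an entry among the RefSeq promoters. A run of this kind could be read from a C within 5 bases of the start in 30 of them (45.5%), against 5718 of all 27025 symbols in the table (21.2%). The annotated start base was itself a C followed by at least 4 bases of C or T, alone or inside a longer run, in 14 of the 66 members and in 3.01% of all symbols. A missing match says only that these letters are not at the annotated start. Rps27 and Rps27rt shared an unbroken run of 38 bases, which began 1 base after the annotated start of Rps27 and at the annotated start of Rps27rt. The coding sequence of Rps27rt, in 1 exon, was identical to that of Rps27, in 4 exons, over all 252 bases. The coding sequences of Rps27 and Rps27l were identical at 63.5% of aligned bases. Rps27rt lies on chromosome 9 (114982366 to 114982739, minus strand, GRCm38) and Rps27 on chromosome 3 (90212522 to 90213651, minus strand), and reads from their shared sequence cannot be told apart, so the values of the pair are uncertain.

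Cells were put into a class when at least 3 of its markers were detected and at most 2 of any other class. The 6 classes with at least 50 cells in each library were T-like, B-like, NK-like, monocyte/macrophage-like, neutrophil-like and erythroid-like cells. Since the gate used these markers, their abundance in a class is no check of its name. The smallest group was the NK-like class of the wild-type PBS library, with 66 cells.

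The ribosomal protein share, the summed UMIs of all 86 members as a percent of the class total, set the classes far apart. Among these 6 classes T-like cells had the highest shares, 38.5%, 42.4%, 41.6% and 40.8% in the 4 libraries. B-like cells followed with 29.1%, 33.7%, 32.0% and 33.5%. The ranges of the T-like and B-like classes, each taken as a whole, did not overlap, though single clusters did, as given below. NK-like cells had 18.6%, 24.95%, 20.6% and 26.0%, and monocyte/macrophage-like cells 17.1%, 14.6%, 19.1% and 14.9%, so that these 2 classes overlapped with each other. Neutrophil-like cells had 3.07%, 3.34%, 4.69% and 2.28%, and erythroid-like cells 5.03%, 5.11%, 3.601% and 4.26%. These last classes overlapped, and both lay below every other class. Haemoglobin genes made up a median of 77.0%, 77.9%, 89.1% and 87.1% of the UMIs of an erythroid-like cell. In the other classes the median was at most 0.90%. Haemoglobin UMIs are part of the class total, and their part in the low erythroid-like share and in its order among libraries was not tested. The widest of the binomial intervals (Clopper-Pearson) was that of NK-like cells in the wild-type TNF library, 24.8% to 25.1%.

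**Figure D1:**
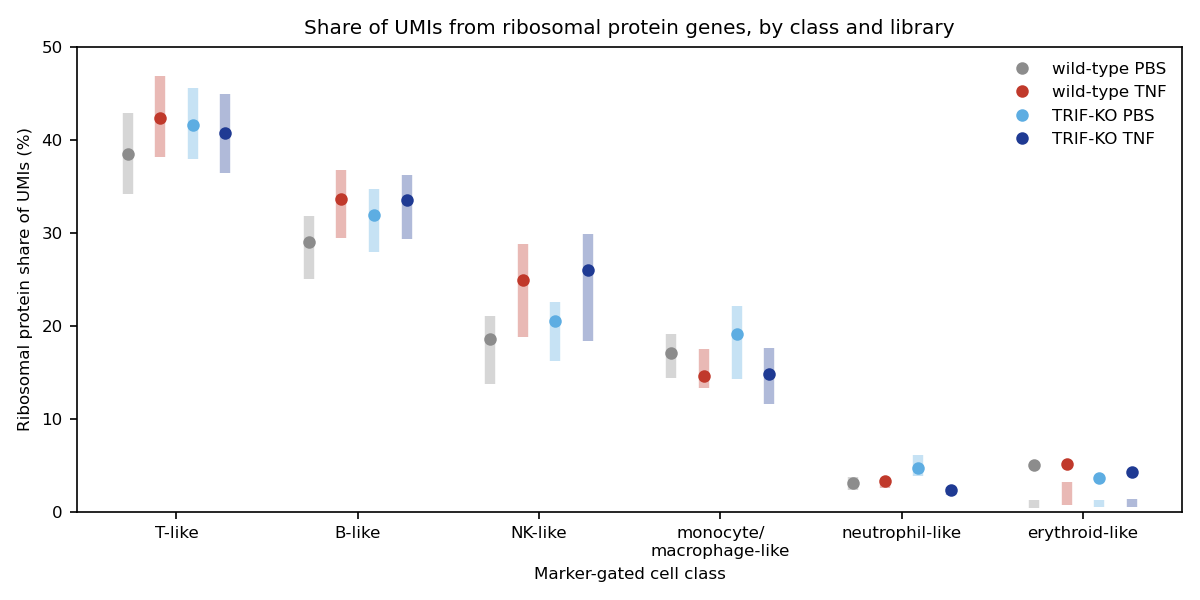
Ribosomal protein share of UMIs in percent (y axis) in the 6 marker-gated classes (x axis) and 4 libraries (colours). Points are shares of summed UMIs and pale bars the middle 50% of the cells' own shares. T-like cells sit highest, near 40%, and the points of neutrophil-like and erythroid-like cells lie at or below 5.11%.

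Clusters, made without ribosomal protein genes, gave values for cell types that the gate left too small. The highest shares were those of cluster 7, which the markers left unnamed and which was led by Plac8, Pmf1 and Dtx1. It had 49.9%, 49.3%, 48.6% and 50.9% in 31, 85, 97 and 91 cells, above every T-like cluster. Its cells were shallow, with medians of 1468, 1839, 1709 and 1485 UMIs, against 3395 to 10831.5 in the B-like and T-like clusters. The part of this depth in its share, and whether cluster 7 is a cell type of its own, was not tested. Progenitor-like cells had 28.7%, 31.5%, 31.4% and 31.2%. Dendritic-like clusters had 24.2%, 27.0%, 27.5% and 26.7%. Plasma-cell-like cells, which devote most of their mRNA to antibody, had 9.66%, 10.2%, 10.5% and 9.44% in 10 to 14 cells. T-like clusters were not alike. Cluster 4, led by Tnfrsf4, Ikzf2 and Ctla4, had 27.0%, 33.1%, 32.3% and 33.0%. That was below B-like cluster 3 in each library, with 31.5%, 36.4%, 34.7% and 36.4%. T-like cluster 9, led by Cd8b1 and Cd8a, had 40.5%, 44.1%, 43.3% and 43.3%. The wild-type PBS library was the lowest of the 4 in 14 of 18 clusters with at least 20 cells in each library, among them all 5 B-like and all 4 T-like clusters. The wild-type PBS and TRIF-KO-labelled TNF libraries had more UMIs per cell than the other libraries, and the part of that difference in the shares was not tested.

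**Figure D2:**
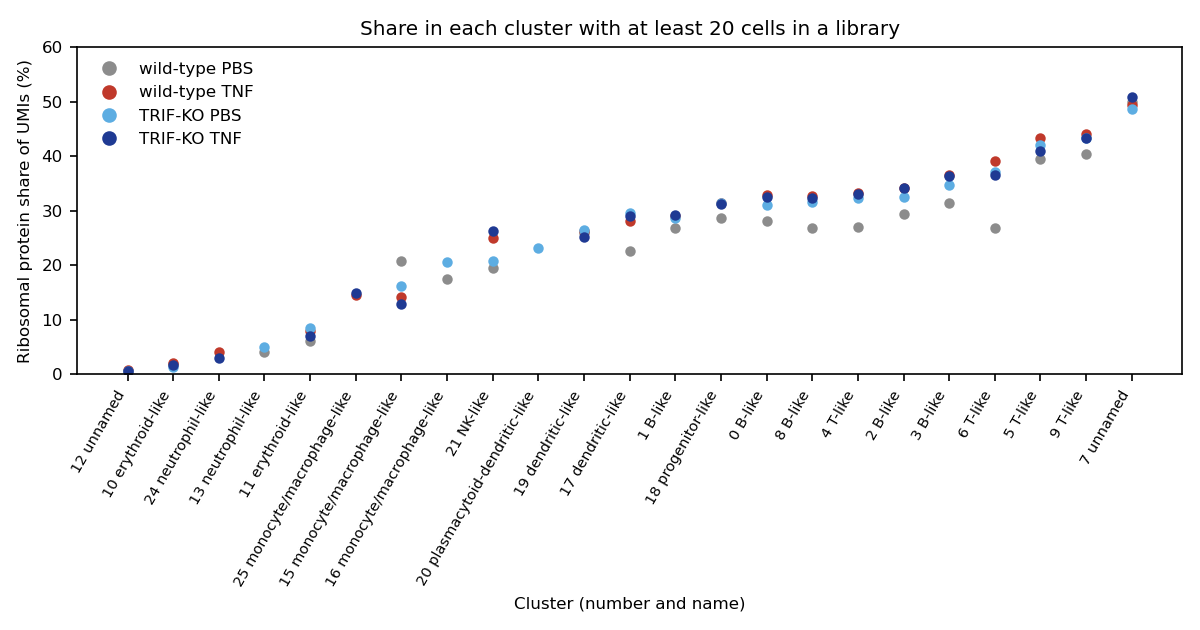
Ribosomal protein share of UMIs in percent (y axis) in each cluster with at least 20 cells in a library, ordered by its median over libraries (x axis, cluster number and name). Each point is 1 library; grey points, for wild-type PBS, are the lowest in 14 of the 18 clusters that have all 4.

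In T-like cells the share was higher with TNF than with PBS in wild-type and slightly lower in the TRIF-KO-labelled pair. The log2 ratio of TNF to PBS was 0.14 (95% interval 0.14 to 0.14) in wild-type and -0.03 (-0.03 to -0.03) in the TRIF-KO-labelled libraries. In B-like cells it was 0.21 and 0.07. NK-like cells had the largest positive ratios, 0.42 (0.41 to 0.44) and 0.34 (0.32 to 0.35), which are 1.34-fold and 1.26-fold. Monocyte/macrophage-like cells had -0.23 and -0.36. Thus both TNF libraries were higher in B-like and NK-like cells and lower in monocyte/macrophage-like cells than the PBS library of the same genotype. In neutrophil-like cells the ratio was 0.12 (0.09 to 0.15) in wild-type and -1.04 (-1.07 to -1.01) in the TRIF-KO-labelled libraries. In erythroid-like cells it was 0.02 and 0.24.

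The TRIF-KO-labelled response minus the wild-type response was below 0 in 5 of the 6 classes, at -0.17, -0.14, -0.09, -0.14 and -1.16 for T-like, B-like, NK-like, monocyte/macrophage-like and neutrophil-like cells, and 0.22 for erythroid-like cells. These differences were not tested. A scaling by the median gene in place of the total moved all genes of a class by 0.14 to 0.41 in the wild-type comparison and by -0.18 to 0.40 in the TRIF-KO-labelled one, on the log2 scale. Relative to the median gene, the wild-type log2 ratios of the share became 0.28, 0.35, 0.60, -0.03, 0.53 and 0.19 in the order T-like, B-like, NK-like, monocyte/macrophage-like, neutrophil-like and erythroid-like. The TRIF-KO-labelled ratios became -0.07, 0.09, 0.43, -0.37, -0.64 and 0.06, and the difference in erythroid-like cells turned to -0.13.

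Single members were then compared as CPM within their class, for genes whose 4 libraries together gave 100 UMIs or more and of which at least 1 reached 50 CPM. This left 82 members in T-like, B-like and monocyte/macrophage-like cells, 81 in NK-like and neutrophil-like cells and 80 in erythroid-like cells. Rpl10l had no UMI in any of the 6 classes. Rpl39l, Rpl3l and Rps19bp1 stayed below the filter throughout, Rpl7l1 in NK-like, neutrophil-like and erythroid-like cells, and Rps27rt in erythroid-like cells. A gene was counted as different when the CPM ratio of the libraries reached 1.5-fold.

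**Figure D3:**
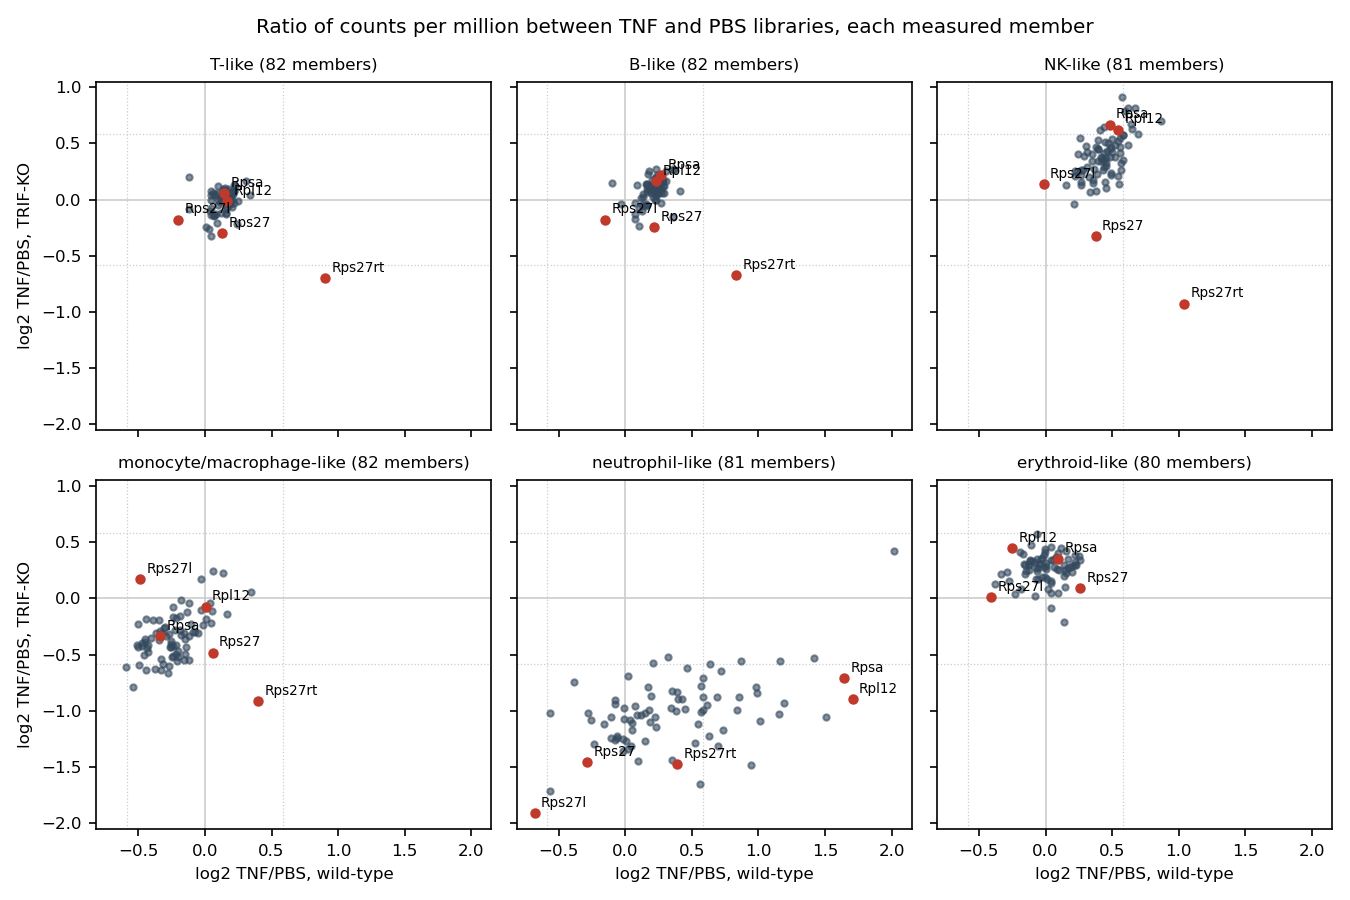
Log2 ratio of CPM between TNF and PBS for each measured member in wild-type (x axis) and in the TRIF-KO-labelled libraries (y axis), 1 panel per class, with dotted lines at 1.5-fold. Most members of T-like, B-like, NK-like and erythroid-like cells form 1 tight cloud from which Rps27rt stands apart where measured, and members of neutrophil-like cells spread from -0.68 to 2.02 on the x axis.

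In T-like cells most members differed between libraries by a small and similar amount. In wild-type 79 of 82 measured members had a ratio above 1, with a median log2 ratio of 0.15 beside -0.14 for all 2752 measured genes. Only Rps27rt reached 1.5-fold higher, where 6.98% of all measured genes did, and no member was 1.5-fold lower, against 16.3% of all genes. In the TRIF-KO-labelled pair 43 members lay above 1 and 39 below, with a median of 0.01 beside 0.05 for all genes. None reached 1.5-fold higher (5.31% of all genes) and Rps27rt alone was lower (4.25% of all genes). Small and large subunit genes, without the like genes, gave close values: their wild-type medians were 0.15 over 31 and 0.14 over 46 genes.

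In T-like cells Rps6, the small subunit protein that S6 kinases phosphorylate, had 3333, 4212, 3966 and 4087 CPM. Its log2 ratio was 0.34 (0.31 to 0.37) in wild-type and 0.04 in the TRIF-KO-labelled pair. The wild-type PBS library was low and the other 3 lay close together. Rpl3, which lies near the peptidyl transferase centre, had 2631, 3257, 3052 and 3435 CPM, with ratios of 0.31 and 0.17. Both TNF libraries were above both PBS libraries for Rpl3. Rps29, a zinc-binding protein of the small subunit, had 13054, 13459, 14668 and 11758 CPM, with ratios of 0.04 and -0.32. Rpl41, the smallest large subunit protein, had 5201, 6133, 6325 and 5445 CPM, with ratios of 0.24 and -0.22. For Rps29 and Rpl41 the TRIF-KO-labelled TNF library was low against the TRIF-KO-labelled PBS library.

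The stalk proteins Rplp0, Rplp1 and Rplp2, which recruit elongation factors to the large subunit, had wild-type log2 ratios of 0.17, 0.19 and 0.16 in T-like cells. For the TRIF-KO-labelled libraries their ratios were 0.09, -0.04 and -0.13. Rpsa, the laminin receptor protein of the small subunit, had 0.14 and 0.06. Rps27l, a p53-responsive relative of Rps27, had 140, 121, 159 and 140 CPM and was the lowest member of the wild-type comparison, at -0.20 (-0.35 to -0.05). Next to it were Rpl7l1 and Rpl23a, each at -0.12. The highest members of the TRIF-KO-labelled comparison were Rpl7l1 (0.20), Rpl3 (0.17) and Rpl22l1 (0.13), and the lowest after Rps27rt were Rps29 and Rps27 (-0.30).

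In B-like cells too, most members differed by a small and similar amount in wild-type, and more members than in T-like cells lay above 1 in the TRIF-KO-labelled pair. In wild-type 79 of 82 members lay above 1, with a median of 0.22 beside -0.14 for all genes. In the TRIF-KO-labelled pair 65 did, with a median of 0.10 beside -0.01. Rps27rt was again the only member past 1.5-fold, higher in wild-type (3.94% of all genes higher, 10.2% lower) and lower in the TRIF-KO-labelled pair (3.67% of all genes higher, 3.44% lower). After it the highest wild-type members were Rps6, with 2093, 2780, 2638 and 2789 CPM and a ratio of 0.41 (0.38 to 0.43), and Rps2, with 2537, 3270, 2929 and 3510 CPM and a ratio of 0.37. Rps2 lines the mRNA entry of the small subunit. For Rps6 the wild-type PBS library stood low and the other libraries were close.

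Among the fixed members in B-like cells, Rpl3 had log2 ratios of 0.36 and 0.27, Rplp0 0.31 and 0.25, Rplp1 0.25 and 0.08, Rplp2 0.23 and 0.00, and Rpsa 0.27 and 0.22. Rpl41 had 0.36 and -0.16, and Rps29 0.11 and -0.24. Rpl3, Rpl10a and Rps2, at 0.27, 0.27 and 0.26, were the highest of the TRIF-KO-labelled comparison. Rps27 and Rps29, at -0.25 and -0.24, were the lowest after Rps27rt. In wild-type the lowest were Rps27l (-0.15), Rpl7l1 (-0.10) and Rpl23a (-0.03).

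NK-like cells had more single members past 1.5-fold. In wild-type 80 of 81 members lay above 1, with a median of 0.44 beside -0.16 for all genes. Past 1.5-fold were 9 members higher and 0 lower, with 11.3% and 26.4% of all measured genes. For the TRIF-KO-labelled libraries 78 of 81 lay above 1, with a median of 0.38 beside -0.10. There 11 members were higher and 1, Rps27rt, was lower, with 9% and 17.3% of all genes. The share of members past 1.5-fold higher thus lay near that of all genes.

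Rps19, a small subunit protein mutated in Diamond-Blackfan anaemia, had 1511, 2758, 1641 and 2667 CPM in NK-like cells, with log2 ratios of 0.87 (0.72 to 1.02) and 0.70 (0.58 to 0.83). Both TNF libraries were above both PBS libraries, without overlap. Rplp0 had 1702, 2713, 1865 and 3290 CPM, with ratios of 0.67 and 0.82 (0.70 to 0.94). Rps2 had 1368, 2098, 1462 and 2575 CPM, with ratios of 0.62 and 0.82. Rpl10a, of the large subunit, had 1143, 1699, 1115 and 2096 CPM, with ratios of 0.57 and 0.91 (0.76 to 1.06). The TNF libraries were the higher ones for each of these genes. Rpl36a, a large subunit protein, had 927, 1503, 1046 and 1567 CPM, with ratios of 0.70 and 0.58.

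Of the other fixed members in NK-like cells, Rpl3 had log2 ratios of 0.64 and 0.68, Rpsa 0.48 and 0.67, Rps6 0.56 and 0.47, Rplp1 0.56 and 0.33, Rplp2 0.43 and 0.26, and Rpl41 0.49 and 0.23. Rps29 had 0.21 and -0.04, and Rps27 -0.32 in the TRIF-KO-labelled pair. Rps27l stood at 247, 245, 228 and 251 CPM, a ratio of -0.01 (-0.46 to 0.43) in wild-type, and Rpl36al at 0.16. In the 53, 64, 126 and 45 NK-like cells with 2000 to 8000 UMIs, chosen after the data were seen, the log2 ratio of the share was 0.62 in wild-type and -0.04 in the TRIF-KO-labelled pair, so the direction in the latter turned. In these cells the TRIF-KO-labelled ratios of Rplp0, Rps2 and Rpl10a were 0.11, 0.40 and 0.32, below 1.5-fold. With classes taken from clusters the wild-type ratio of Rpl36a was 0.49.

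In monocyte/macrophage-like cells most members were lower with TNF. In wild-type 71 of 82 lay below 1, with a median of -0.24 beside -0.17 for all genes. Rpl10, a large subunit protein added late in assembly, was the only member 1.5-fold lower, against 29.9% of all genes, and none was higher, against 19.5%. In the TRIF-KO-labelled pair 77 lay below 1, with a median of -0.34 beside 0.00 for all genes. There 10 members were lower (21.8% of all genes) and 0 higher (21.6% of all genes). Rpl10 had 2613, 1733, 2653 and 1737 CPM, with ratios of -0.59 (-0.71 to -0.47) and -0.61 (-0.69 to -0.53). The TNF libraries were close to each other, as were the PBS libraries. Its wild-type call ended with a mitochondrial limit of 5% (-0.50), with a denominator without mitochondrial, haemoglobin and immunoglobulin genes (-0.58) and with scaling by the median gene (-0.39).

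Rps3, at the mRNA entry of the small subunit, had a log2 ratio of -0.51 in wild-type. Rpl37, of the large subunit, had -0.66 in the TRIF-KO-labelled pair, and -0.57, short of 1.5-fold, with each cell weighted equally. Some members did not go along. Rplp1 had 2678, 3007, 3349 and 3048 CPM, with ratios of 0.17 and -0.14. Rpl22l1, a second copy of Rpl22, had 325, 413, 352 and 367 CPM, with ratios of 0.35 (0.07 to 0.62) and 0.06. Rps2, Rpl7l1 and Rpl36al were the highest of the TRIF-KO-labelled comparison, at 0.25, 0.23 and 0.18. Rps27l had 402, 287, 316 and 356 CPM, with ratios of -0.48 and 0.17.

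Among the fixed members of these cells, Rpsa had log2 ratios of -0.34 and -0.34, Rplp0 -0.35 and -0.37, Rplp2 -0.11 and -0.23, Rps6 0.06 and -0.12, Rpl3 -0.24 and -0.17, Rpl41 -0.12 and -0.34, and Rps29 -0.20 and -0.52.

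Different clusters made up this class in the PBS and the TNF libraries. Cluster 16, led by Lyz2, F13a1 and Ccr2, gave 86.6% and 76.4% of the class UMIs in the PBS libraries and no cell in the TNF libraries. Cluster 25, led by Saa3 and Ms4a6d, gave 67.7% and 69.9% in the TNF libraries. In cluster 15, led by Marco, Vcam1 and C1qa, the share could be followed in all 4 libraries and was 16.5%, 13.3%, 16.2% and 12.6% in 46, 85, 88 and 210 gated cells. Both TNF libraries were lower there too. The 8 dendritic-like markers summed to 275, 108, 270 and 76 CPM in the class, with 1 of 8 at 0, and the median UMIs per cell were 8781, 1324.5, 4616 and 1490.5. The part of either in the ratios was not tested.

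Neutrophil-like cells showed the widest spread among members. In wild-type 61 of 81 members lay above 1, with a median of 0.33 beside -0.39 for all genes. Past 1.5-fold were 24 members higher (17.8% of all genes) and 1 lower (41.7% of all genes). For the TRIF-KO-labelled libraries 80 of 81 lay below 1, with a median of -1.02 beside -0.44 for all genes. There 75 members were lower, against 42.9% of all measured genes, and 0 higher, against 14%. Rpl3, Rpl12 and Rpsa had the highest ratios in wild-type.

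Rpl3 had 34.0, 138, 61.7 and 82.8 CPM in neutrophil-like cells, from 25, 54, 19 and 233 UMIs. Its log2 ratio was 2.02 (1.31 to 2.76) in wild-type and 0.42 (-0.25 to 1.18) in the TRIF-KO-labelled pair, the only ratio above 1 there. The TNF library was the higher one in each genotype. Rpl12, of the stalk base, had 53.1, 173, 166 and 88.8 CPM, with ratios of 1.71 (1.12 to 2.31) and -0.90 (-1.34 to -0.44). Rpsa had 102, 318, 234 and 143 CPM, with ratios of 1.64 (1.22 to 2.07) and -0.71 (-1.08 to -0.33). For both genes the wild-type PBS library was the lowest and the wild-type TNF library the highest. With classes taken from clusters the wild-type ratio of Rpl12 was 0.20.

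At the low end, Rps27l had 32.7, 20.4, 68.2 and 18.1 CPM in neutrophil-like cells, with ratios of -0.68 (-2.04 to 0.52) and -1.91 (-2.67 to -1.11). It was below 1 in both pairs, its wild-type interval spans no change, and its wild-type call ended with clusters (-0.43), with equal weight for each cell (-0.31) and with scaling by the median gene (-0.27). Rpl17, of the large subunit, had 765, 517, 1172 and 358 CPM, with ratios of -0.56 and -1.71. Rpl5, which binds the ribosomal 5S RNA, had 154, 227, 273 and 87.0 CPM, with ratios of 0.56 and -1.65. Rpl37 had a ratio of -0.56 in wild-type. The next highest of the TRIF-KO-labelled pair after Rpl3 were Rpl7 (-0.52) and Rpl36al (-0.53).

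Among the fixed members of neutrophil-like cells, Rps6 had log2 ratios of -0.10 and -1.24, Rplp0 0.21 and -0.57, Rplp1 0.09 and -1.04, Rplp2 0.15 and -1.02, Rpl41 -0.24 and -1.29, and Rps29 -0.11 and -1.06. Rpl36al had 1.41 (0.65 to 2.20) and -0.53, and Rpl22l1 0.98 (-0.03 to 1.997) and -0.79.

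The wild-type order of the neutrophil-like share was not stable. It turned to a log2 ratio of -0.025 with a stricter gate, -0.073 with classes taken from clusters and -0.068 in cells with 2000 to 8000 UMIs. The median over single cells was 3.02% with PBS and 2.90% with TNF, the opposite order to the summed UMIs. In the TRIF-KO-labelled pair the cell medians were 4.77% and 2.15%, and the middle 50% of cells, 3.81% to 6.10% and 1.83% to 2.61%, did not overlap. Cluster 13, led by Csf3r and Cxcr2, held 162 and 99 cells of the PBS libraries and none of the TNF libraries. Cluster 24, led by Ngp, Camp and Lcn2, held 82 and 358 cells of the TNF libraries and 5 and 4 of the PBS libraries. The 8 B-like markers summed to 20.4, 79.0, 104 and 27.3 CPM in the class, with none at 0 over the 4 libraries, against 8232, 7150, 8949 and 6964 CPM in B-like cells. The order of these sums was that of the wild-type and TRIF-KO-labelled ribosomal protein shares within each genotype, and median UMIs per cell were 4297, 4680, 2545 and 7493. Their part in the result was not tested.

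Erythroid-like cells had no member past 1.5-fold in any direction with the gate used, but this was not stable. Higher in wild-type were 24 members with classes taken from clusters and 41 with equal weight for each cell, and 25 were higher in the TRIF-KO-labelled pair with a stricter gate. In cells with 2000 to 8000 UMIs 25 were lower in wild-type and 36 in the TRIF-KO-labelled pair. The shares of all measured genes were not computed under these other settings, so these counts cannot be set against them. With the gate used, 2.17% of all measured genes were higher and 13% lower in wild-type. In the TRIF-KO-labelled pair 6.77% were higher and 0.608% lower. In wild-type 40 of 80 members lay above 1 and 40 below, with a median of 0.00 beside -0.16 for all genes. For the TRIF-KO-labelled libraries 78 lay above 1, with a median of 0.29 beside 0.18. Rpl10a had 402, 385, 222 and 330 CPM, with ratios of -0.06 and 0.57 (0.46 to 0.68). The TRIF-KO-labelled PBS library was the low one for this gene.

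Rpl22l1 and Rpl29 followed Rpl10a in the TRIF-KO-labelled erythroid comparison, at 0.47 and 0.46, and Rpl41, Rps29 and Rps27l were lowest, at -0.21, -0.09 and 0.01. In wild-type Rps27, Rps14 and Rps4x were highest, at 0.26, 0.26 and 0.25, and Rps27l, Rpl36al and Rpl31 lowest, at -0.41, -0.38 and -0.34. Of the fixed members, Rpsa had 0.09 and 0.35, Rplp0 0.22 and 0.39, Rplp1 0.17 and 0.35, Rplp2 0.09 and 0.05, Rps6 0.15 and 0.43, and Rpl3 -0.01 and 0.44.

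The wild-type log2 ratio of the erythroid-like share, 0.02, became 0.32 with a stricter gate, 0.51 with clusters, 0.39 with a mitochondrial limit of 5%, 0.59 with equal weight and -0.45 in cells with 2000 to 8000 UMIs. The ratio of the TRIF-KO-labelled pair turned to -0.28 with classes taken from clusters, -0.07 with each cell weighted equally and -0.55 in cells with 2000 to 8000 UMIs. The class joined cells of very unlike shares. In cluster 11, led by Hemgn and the histone and proliferation genes, gated cells had 5.33%, 8.04%, 7.04% and 6.96%. In cluster 10 they had 0.84%, 1.44%, 1.05% and 1.36%, and in cluster 12, led by Bpgm and Alas2, 0.55%, 0.73%, 0.56% and 0.63%. Cluster 12 held 34.4%, 40.8%, 55.2% and 52.8% of the class UMIs, more in the TRIF-KO-labelled libraries. The rest of the class lay in other clusters. Within each of these 3 clusters the wild-type PBS library was the lowest.

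Rps27rt, the retrogene, stood apart from the other members. T-like cells had 188, 351, 325 and 201 CPM of it, with log2 ratios of 0.90 (0.79 to 1.02) in wild-type and -0.70 (-0.78 to -0.62) in the TRIF-KO-labelled pair. The values of wild-type PBS and TRIF-KO-labelled TNF were low and those of the other libraries high, without overlap. B-like cells had 178, 317, 295 and 185 CPM, with ratios of 0.83 (0.75 to 0.92) and -0.67 (-0.74 to -0.61). In NK-like cells the values were 102, 209, 196 and 103 CPM, with ratios of 1.04 and -0.92. Among all members it alone had opposite signs, positive for wild-type and negative for the TRIF-KO-labelled pair, in each of the 5 classes where it was measured.

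In monocyte/macrophage-like cells Rps27rt had 63.6, 84.0, 100 and 53.1 CPM, with ratios of 0.40 (-0.23 to 1.02) and -0.92 (-1.37 to -0.47), and in neutrophil-like cells 40.8, 53.5, 68.2 and 24.5 CPM, with ratios of 0.39 (-0.49 to 1.24) and -1.48. In erythroid-like cells it was below the filter, with 41, 123, 53 and 149 UMIs. For Rps27 itself T-like cells had 10437, 11430, 12140 and 9876 CPM. Its ratios were 0.13 and -0.30.

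The UMIs of Rps27rt as a percent of those of Rps27 and Rps27rt together take out the level of the pair. They were 1.77%, 2.98%, 2.61% and 1.99% in T-like cells and 2.01%, 3.04%, 2.73% and 2.05% in B-like cells. Intervals of the 2 low and the 2 high libraries did not overlap in these classes. In erythroid-like cells they were 1.965%, 3.21%, 3.15% and 1.98%. There the intervals of wild-type PBS (1.41% to 2.66%) and TRIF-KO-labelled PBS (2.37% to 4.10%) overlapped. NK-like cells had 1.97%, 3.08%, 2.97% and 1.98%, and monocyte/macrophage-like cells 1.88%, 2.37%, 2.45% and 1.82%. Neutrophil-like cells had 2.56%, 4.04%, 3.04% and 3.004%. Intervals of low and high libraries overlapped in these classes too. The low libraries are those with more UMIs per cell (medians of 6883.5 and 7198.5, against 4678 and 4408), and the part of that in the retrogene's values was not tested.

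**Figure D4:**
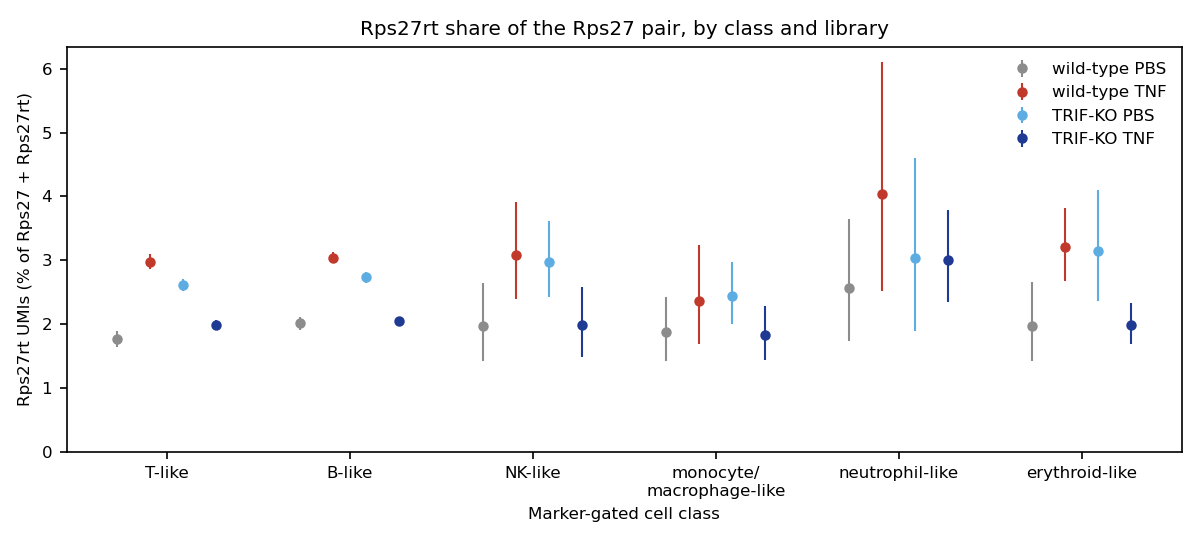
Rps27rt UMIs as a percent of Rps27 and Rps27rt UMIs (y axis) by class (x axis) and library (colours), with exact 95% intervals for counting error. In T-like and B-like cells wild-type PBS and TRIF-KO-labelled TNF sit near 2%, below the other libraries. In each of the other classes some intervals of these libraries overlap those of the other libraries.

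Beside their sum, the makeup of the ribosomal protein RNA differed between classes. For each member its UMIs were taken as a percent of the UMIs of all members, which allows 1 gene to be compared across classes. Members were then sought whose 4 library values in a class lay wholly above or wholly below those of the other 5 classes, and the genes named from this were chosen after their values were seen. Neutrophil-like cells had 11 such members above and 27 below, and erythroid-like cells 11 and 11. T-like cells had 4 and 6, NK-like cells 3 and 0, monocyte/macrophage-like cells 2 and 0, and B-like cells 1 and 1. The same search was not made over all measured genes, so these counts do not set the members apart from other genes.

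Rps9, a small subunit protein that helps set decoding accuracy, made up 7.45%, 5.26%, 6.41% and 7.88% of the ribosomal protein RNA of neutrophil-like cells, against 1.06% to 2.12% elsewhere. The ubiquitin fusion gene Rps27a followed with 4.63%, 3.56%, 4.08% and 3.97%, against at most 2.13%, and Rpl37 with 5.07%, 3.15%, 3.57% and 3.62%, against at most 1.79%. Rps18 made up 0.28%, 0.57%, 0.46% and 0.47%, against at least 1.03%, and Rpl10a 0.10%, 0.21%, 0.20% and 0.22%, against at least 0.54%. Thus Rps9, Rps27a and Rpl37 were high and Rps18 and Rpl10a low in neutrophil-like cells of all 4 libraries.

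This makeup differed between TNF and PBS by 1.5-fold in the same direction in both genotypes for 3 genes in neutrophil-like cells. As a part of the ribosomal protein RNA, Rpl3 went from 0.11% to 0.41% in wild-type and from 0.13% to 0.36% in the TRIF-KO-labelled pair, log2 ratios of 1.90 and 1.46. Rpl17 had -0.69 and -0.67 and Rps27l -0.80 and -0.87. In the other 5 classes no member passed 1.5-fold in the same direction in both pairs. Neutrophil-like cells had the fewest ribosomal protein UMIs of the classes in each library, 22601, 13125, 14442 and 64179. Rpl3 and Rps27l were a small part of these. The PBS and TNF libraries also drew on different neutrophil-like clusters, as given above. Their part in this contrast was not tested, and no such count was made over other genes.

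In erythroid-like cells Rpl41 made up 3.71%, 4.03%, 4.76% and 3.47% of the ribosomal protein RNA, against 1.33% to 3.11% elsewhere, and Rplp0 2.02%, 2.31%, 2.12% and 2.34%, against at most 1.52%. Rps27 was low there, at 1.09%, 1.28%, 1.24% and 1.11%, against at least 1.93%. In T-like cells Rpl12 was high, at 1.70%, 1.73%, 1.70% and 1.71%, against at most 1.40%. Rps27l was low in T-like cells, at 0.04%, 0.03%, 0.04% and 0.03%, only just below the lowest value elsewhere, 0.0396% in B-like cells. Rpl36al was highest in monocyte/macrophage-like cells, at 0.56%, 0.65%, 0.44% and 0.64%, against at most 0.38%.

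**Figure D5:**
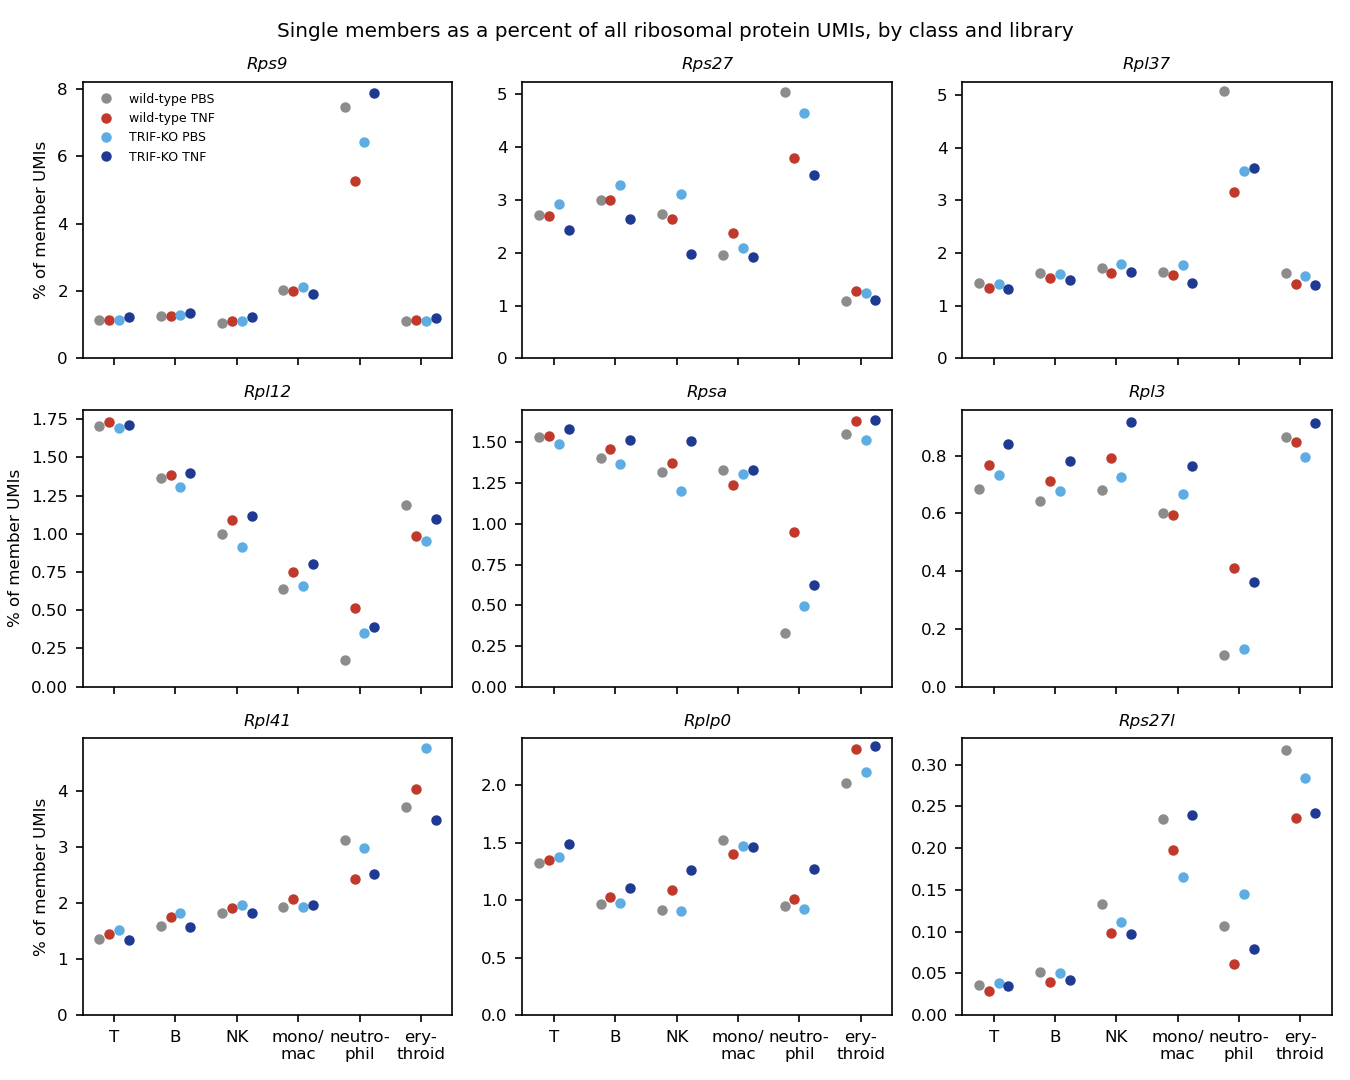
UMIs of 9 members as a percent of all ribosomal protein UMIs (y axes, each from 0) by class (x axis) and library (colours). Rps9 and Rpl37 are high and Rpl12, Rpsa and Rpl3 low in neutrophil-like cells, and Rpl41 and Rplp0 are high in erythroid-like cells.

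Rpl3l and Rpl39l were sparse. Rpl3l, a relative of Rpl3 known from muscle, had 8, 6, 14 and 24 UMIs in neutrophil-like cells and 8, 3, 14 and 7 in monocyte/macrophage-like cells, but 0, 1, 0 and 0 in B-like cells and none in T-like or NK-like cells. Its coding sequence was identical to that of Rpl3 at 74.1% of aligned bases. Rpl39l, a testis-rich relative of Rpl39, had 2, 9, 12 and 9 UMIs in T-like cells and none in neutrophil-like or erythroid-like cells. For Rps19bp1 T-like cells had 21.9, 26.0, 29.4 and 31.4 CPM, and B-like cells 33.3, 39.6, 38.0 and 43.5.

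Genes that make, regulate or work beside the ribosome were compared in the same way, from lists chosen with earlier results known. The counts of these lists stand beside the shares of all measured genes already given. Higher in wild-type and in the TRIF-KO-labelled pair were 6.98% and 5.31% in T-like, 3.94% and 3.67% in B-like, 11.3% and 9% in NK-like, 19.5% and 21.6% in monocyte/macrophage-like and 17.8% and 14% in neutrophil-like cells. Lower were 16.3% and 4.25%, 10.2% and 3.44%, 26.4% and 17.3%, 29.9% and 21.8%, and 41.7% and 42.9% in the same order. Ribosome biogenesis factors assemble ribosomes in the nucleolus. In B-like cells 1 of 16 measured was 1.5-fold higher in wild-type and 10 of 16 in the TRIF-KO-labelled pair, with medians of 0.23 and 0.66 beside -0.14 and -0.01 for all genes, and none was lower. Gnl3, the nucleolar GTPase nucleostemin, had 106, 179, 89.8 and 179 CPM there, with ratios of 0.75 and 0.998. Nolc1, a nucleolar chaperone, had 0.36 and 0.88. In NK-like cells 7 of 11 were higher and 1 lower in wild-type, and 5 of 11 higher and 0 lower in the TRIF-KO-labelled pair. Of the 7, Dkc1 had 17 and 21 UMIs in wild-type, and its interval, -0.28 to 1.73, spans no change. Gnl3 was again high with TNF, at 41.2, 138, 27.8 and 113 CPM.

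In monocyte/macrophage-like cells the medians of biogenesis factors and ribosomal proteins had opposite signs. Of 14 measured factors 3 were higher and 1 lower in wild-type, and 10 higher and 0 lower in the TRIF-KO-labelled pair, with medians of 0.19 and 0.91 beside -0.24 and -0.34 for the ribosomal protein genes. Nop58, a box C/D snoRNP protein, had 42.4, 48.6, 26.1 and 97.0 CPM, with ratios of 0.20 and 1.90. In T-like cells 0 of 14 were past 1.5-fold in wild-type and 1, Ncl, was higher in the TRIF-KO-labelled pair, at 0.65. In erythroid-like cells 0 of 7 were higher and 2 lower in wild-type, and 3 higher in the TRIF-KO-labelled pair. In neutrophil-like cells 1 of 3 was higher and 1 lower in wild-type, and 2 of 3 lower in the TRIF-KO-labelled pair.

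The snoRNA host genes, whose transcripts also open with TOP tracts, were higher in 5 of 5 measured in wild-type NK-like cells and in 3 of 5 in the TRIF-KO-labelled pair. Zfas1 had 29.1, 67.6, 29.8 and 105 CPM there, from 12, 21, 15 and 55 UMIs, with ratios of 1.22 (0.13 to 2.37) and 1.82 (0.98 to 2.75). Counts were low in NK-like cells: Snhg1 had 17 and 22 UMIs in wild-type and Snhg3 20 and 27. The wild-type intervals of Snhg1 (-0.20 to 1.79) and Snhg3 (-0.04 to 1.75) span no change. In monocyte/macrophage-like cells 2 of 4 were lower in wild-type, and 3 of 4 lower and 1 higher in the TRIF-KO-labelled pair. Gas5 had 246, 119, 351 and 130 CPM, with ratios of -1.04 and -1.43. In B-like cells 3 of 7 were higher in wild-type and 1 of 7 in the TRIF-KO-labelled pair, and in T-like cells 1 and 0 of 7.

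Other translation genes with TOP starts, such as elongation factors, seldom reached 1.5-fold in lymphocytes. Of 20 measured, 1 was higher and 0 lower in wild-type B-like cells, 1 and 1 in T-like cells and 1 and 0 in NK-like cells. In the TRIF-KO-labelled pair the counts were 0 and 0, 0 and 0, and 3 and 0. Hnrnpa1, an RNA-binding protein, was the higher one in wild-type for each of the 3 classes, at 0.61, 0.81 and 0.95. In monocyte/macrophage-like cells 6 of 20 were lower in each pair, with medians of -0.34 and -0.45. Eif3f, of initiation factor eIF3, had 444, 230, 572 and 282 CPM there. In neutrophil-like cells 3 of 16 were higher and 4 lower in wild-type, and 9 lower in the TRIF-KO-labelled pair. In erythroid-like cells 0 of 18 were higher and 1 lower in wild-type, and none in either direction in the TRIF-KO-labelled pair.

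Mitochondrial ribosomal protein genes, whose products form a separate ribosome, had median log2 ratios of -0.44 in wild-type and 0.05 in the TRIF-KO-labelled pair of monocyte/macrophage-like cells, beside -0.24 and -0.34 for the cytosolic set. There 5 of 41 were higher and 18 lower in wild-type, and 7 higher and 4 lower in the TRIF-KO-labelled pair. Mrpl52 had 424, 1006, 235 and 933 CPM there, with ratios of 1.25 and 1.99. In B-like cells 1 of 33 was past 1.5-fold in wild-type and 0 in the TRIF-KO-labelled pair, in T-like cells 3 and 0 of 35, all of them higher. In NK-like cells 6 of 31 were higher and 4 lower in wild-type, and 5 higher and 1 lower in the TRIF-KO-labelled pair. In neutrophil-like cells 3 of 9 were higher and 1 lower, and 1 higher and 3 lower.

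Among mTORC1, 4E-BP and LARP1 regulators, Ddit4 and Sesn1, which restrain mTORC1, were higher with TNF in B-like cells, at 1.18 and 1.07 in wild-type and 1.23 and 1.32 in the TRIF-KO-labelled pair, the only 2 of 9 past 1.5-fold. T-like cells differed from this, with -0.68 and -0.48 for Sesn1 and -0.37 and 0.70 for Ddit4, and Ddit4 had -0.65 and 0.22 in monocyte/macrophage-like cells. Larp1, which holds back TOP mRNAs, had 79.9, 151, 57.5 and 140 CPM in NK-like cells, with ratios of 0.92 and 1.28. Of these regulators 0 of 5 were higher and 5 lower in wild-type neutrophil-like cells, and 0 and 2 in the TRIF-KO-labelled pair. In monocyte/macrophage-like cells 4 of 8 were higher and 3 lower, then 2 and 1. In NK-like cells the counts were 2 and 1 of 8, then 1 and 1, and in T-like cells 0 and 2 of 9, then 1 and 0. In the Myc list, Mxd4, a repressor that competes with Myc for Max, was lower with TNF in T-like, B-like, NK-like and monocyte/macrophage-like cells of both genotypes, at -1.74 and -0.96 in T-like cells. Mxd1, a repressor of the same family, had 2.97 and 1.86 in T-like cells and 1.66 and -0.09 in NK-like cells. Of 4 genes of this list measured in T-like cells, 2 were higher and 1 lower in wild-type, and 1 higher and 1 lower in the TRIF-KO-labelled pair. Myc itself, an activator of ribosome genes, had 53.3, 83.7, 35.7 and 81.4 CPM in B-like cells, with ratios of 0.65 and 1.19. Among p53 targets, Cdkn1a had 72.6, 144, 26.1 and 103 CPM in monocyte/macrophage-like cells, while Rps27l there had opposite signs in the genotypes. Of this list 3 of 4 were higher and 0 lower there in wild-type, and 2 and 0 in the TRIF-KO-labelled pair. In wild-type T-like cells 0 of 5 were higher and 2 lower, and in NK-like cells 0 and 1 of 4. The wild-type counts were 1 and 0 of 3 in B-like cells and 0 and 1 of 2 in neutrophil-like cells. In the TRIF-KO-labelled pair 1 was higher and 0 lower in T-like, B-like and NK-like cells each, and neither in neutrophil-like cells.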

How the data were processed

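Spleen cells of 4 libraries were profiled by 10x Genomics droplet sequencing. The count values were deposited by the authors as raw UMI counts per gene and cell barcode. They were made with Cell Ranger, version 6.0.1 per the file headers and 3.0 per the submitters' processing notes, which also name Seurat 4.1.1 and build mm10. No source names the annotation release.

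Here, barcodes under 200 genes or above 10% mitochondrial UMIs were dropped, and Scrublet doublets (0.8% expected per 1000 barcodes) were removed. Cells were gated on markers, and counts were summed per library and class with scanpy 1.11.5, numpy 2.4.6, scipy 1.17.1 and pandas 2.3.3. Clusters used 2000 variable genes without members, 30 components and Leiden resolution 1. Ratios carry exact 95% counting intervals, and calls add 0.5 counts. Scripts were tested on simulated data.

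The members and lists were chosen with earlier results of these data known. Genes were named by a rule: the 3 highest and 3 lowest measured members per class and comparison, 8 fixed members, the like genes, and up to 4 genes of each other list. Others are marked as chosen after their values were seen. A gene that the rule names is not reported here. Alternatives changed the gate, the clusters, the mitochondrial and doublet filters, the weight of cells, the denominator, the scaling and the UMI filter.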

Additional observations from a re-analysis of the deposited data

Results flagged for a closer look

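Some responses to TNF had opposite signs in the genotypes, and with 1 library in each group these differences were not tested. The signs did not differ under every setting: the wild-type share of neutrophil-like cells turned to -0.025 with a stricter gate, -0.073 with clusters and -0.068 in cells with 2000 to 8000 UMIs, and the wild-type ratio of Rpl12 there went from 1.71 to 0.20 with clusters. The TRIF-KO-labelled log2 ratio minus the wild-type one was -0.17 for the ribosomal protein share of T-like cells and -1.16 for that of neutrophil-like cells. For the retrogene Rps27rt it was -1.60 in T-like, -1.50 in B-like and -1.97 in NK-like cells. In neutrophil-like cells Rpl12, of the large subunit, had -2.61 and Rpsa, of the small subunit, -2.35, and their lowest counts were 39 and 72 UMIs.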

How the results depend on the processing

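Log2 ratios of the share follow in the order T-like, B-like, NK-like, monocyte/macrophage-like, neutrophil-like and erythroid-like, first for wild-type, then for the TRIF-KO-labelled pair, then their difference. A stricter gate gave 0.13, 0.22, 0.41, -0.21, -0.025 and 0.32, then -0.026, 0.071, 0.34, -0.52, -1.04 and 0.42, then -0.15, -0.15, -0.078, -0.31, -1.01 and 0.10. Classes from clusters gave 0.24, 0.22, 0.35, -0.28, -0.073 and 0.51, then -0.029, 0.073, 0.34, -0.39, -0.69 and -0.28, then -0.27, -0.15, -0.013, -0.11, -0.62 and -0.79. A mitochondrial limit of 5% gave 0.13, 0.22, 0.44, -0.19, 0.12 and 0.39, then -0.024, 0.057, 0.34, -0.37, -1.06 and 0.077, then -0.16, -0.16, -0.10, -0.18, -1.18 and -0.31. Equal weight for each cell gave 0.15, 0.21, 0.42, -0.14, 0.053 and 0.59, then -0.034, 0.063, 0.27, -0.32, -1.02 and -0.071, then -0.18, -0.15, -0.15, -0.18, -1.07 and -0.66. A denominator without mitochondrial, haemoglobin and immunoglobulin genes gave 0.14, 0.21, 0.43, -0.22, 0.13 and 0.19, then -0.022, 0.064, 0.35, -0.39, -1.03 and 0.058, then -0.16, -0.15, -0.079, -0.18, -1.16 and -0.14. Without doublet removal they were 0.13, 0.21, 0.42, -0.20, 0.15 and 0.025, then -0.024, 0.069, 0.35, -0.35, -1.03 and 0.11, then -0.16, -0.14, -0.072, -0.15, -1.18 and 0.087. Cells with 2000 to 8000 UMIs, an alternative chosen after seeing the data and not run for monocyte/macrophage-like cells, gave 0.34, 0.27, 0.62, -0.068 and -0.45, then -0.15, 0.035, -0.045, -1.01 and -0.55, then -0.49, -0.24, -0.66, -0.94 and -0.11.

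Of these values 13 turned their direction, and the cause was not tested. Summed over the 6 classes, 35 members were 1.5-fold higher and 2 lower in wild-type, and 11 higher and 88 lower in the TRIF-KO-labelled pair. Of these 88, 75 were in neutrophil-like cells, where 42.9% of all measured genes were lower. For the alternatives that follow, the share of all measured genes was not computed. Scaling by the median gene also moves all genes of a class. The counts below therefore do not set the members apart from other genes. A stricter gate gave 35 higher in the TRIF-KO-labelled pair and 5 lower in wild-type, and clusters gave 58 lower in the TRIF-KO-labelled pair. Equal weight gave 72 higher and 4 lower in wild-type and 7 higher in the TRIF-KO-labelled pair. Scaling by the median gene gave 98 higher and 0 lower in wild-type and 23 higher in the TRIF-KO-labelled pair. Lower in wild-type were 0 with the mitochondrial limit, 1 with the other denominator and 4 with a filter of 20 UMIs alone. The single genes recomputed were the highest and lowest members that already reached 1.5-fold in the main setting. Of their 194 values, 182 stayed on their side of 1.5-fold, 12 did not, and 0 turned direction. The filter of 20 UMIs alone leaves these ratios unchanged, so its 22 values among the 182 could not differ. No paired analysis was possible because each group has 1 library.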
